A study of Homo sapiens with 2 samples.

Results

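The fibroblast growth factor (FGF) axis of PLC8024 hepatoma cells was described by 9 genes of the 58735 listed in the deposited count table, chosen by name. They were the ligands FGF19, FGF21 and FGF2, the co-receptor gene KLB, the signalling receptor genes FGFR1, FGFR2, FGFR3 and FGFR4, and the receptor-like gene FGFRL1. The cells were PLC/PRF/5 (8024), the Alexander hepatoma line, of epithelial morphology. They were sequenced as 1 library of untreated wildtype cells (MAEL WT) and 1 library of cells in which MAEL had been knocked out with an sgRNA and Cas9 (MAEL KO). The knockout line was raised from sorted cells seeded for single clones, so clone and knockout cannot be told apart. The labels call the wildtype cells non-treated, whereas the study names a nontarget control for wildtype cells in a drug assay, and the sources used here do not say which of these was sequenced. The comparison asked which of these genes differed in level between the libraries.

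FGF ligands bind receptor tyrosine kinases on the cell surface, and the active receptor passes its signal through docking proteins to the RAS-MAPK cascade. Most FGFs act near their source with heparan sulfate as partner, whereas FGF19 and FGF21 circulate as hormones and need beta-klotho, the protein of KLB, to engage their receptors. In the liver, FGF19 from the intestine signals through FGFR4 and beta-klotho to restrain bile acid synthesis, and FGF21 is a hepatic hormone released in fasting and cellular stress. FGF19 with FGFR4 is also known as a growth signal in some liver cancers.

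The MAEL WT library held 19904136 counts and the MAEL KO library 20833332. MAEL, the targeted gene, had 1 and 0 counts, so the labels could not be checked by its transcript. The labels state that the knockout was verified by western blot and by T7E1 assay. The study describes PLC8024 as its line with the highest MAEL level, judged on protein, whereas the MAEL WT library had 0.0145 FPKM. This difference between protein and RNA was not examined. Of the 17 hepatocyte markers examined, all were detected in both libraries, and 16 were higher and 1 lower in MAEL KO, with summed counts of 366964 and 655744. Among them ALB, the albumin gene, had 59 and 8550 counts, and SERPINA1, the gene of alpha-1-antitrypsin, 78162 and 232891. With total-count scaling 14 of the 17 were higher. Of all 17887 genes with 10 or more counts in either library, 8593 were higher in MAEL KO, or 6185 with total-count scaling. Markers of other cell types were mostly low or absent, with LYZ, the lysozyme gene, as an exception at 32.4 and 22.0 FPKM. The summed counts were 280 and 177 for 9 fibroblast markers, with PDGFRA and FAP at 0 in both libraries, and 357 and 414 for 8 endothelial markers, of which PECAM1 gave 348 and 392 and ERG was at 0. For 10 leukocyte markers they were 1361 and 773, of which LYZ gave 1251 and 737, PTPRC gave 3 and 0, and CD3E and MS4A1 were at 0 in both. The part of these marker differences in the results was not tested.

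Counts were normalized by trimmed mean of M values (TMM). Each log2 fold change compares the normalized counts of the knockout library with those of wildtype, 1 added to each, and values beyond 2 in either direction were called. A gene entered when either library had 10 or more counts for it, which 17887 genes did. The differences have no replicate check, because each condition was sequenced once, and no p-value is given. Intervals are exact 95% counting intervals of the ratio between these libraries and say nothing of the spread between cultures. Since RNA was taken from whole cultures, fewer cells of a kind and less RNA per cell cannot be told apart.

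The 3 ligands were lower and the main hepatic receptor was higher in the MAEL KO library. FGF19, FGF21 and FGF2 passed the threshold downwards, KLB, FGFR1 and FGFRL1 were lower and FGFR3 and FGFR4 higher without passing it, and FGFR2 was barely counted. Of the 9 genes, 8 had at least 10 counts in a library, and 3 of these passed the threshold, against 7.80% of all 17887 tested genes. All 3 were lower in MAEL KO, and 0 were higher. Of all tested genes, 5.64% lay below -2 and 2.16% above 2, so that 27.7% of the called genes were higher in MAEL KO, or 17.0% with total-count scaling. The ligands had few counts, and, in a class chosen after seeing the data, among the 7232 tested genes with under 200 counts in the higher library 14.7% passed the threshold in either direction and 11.4% lay below -2. FGF21 entered the tested set through MAEL WT alone and therefore had to differ.

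**Figure D1:**
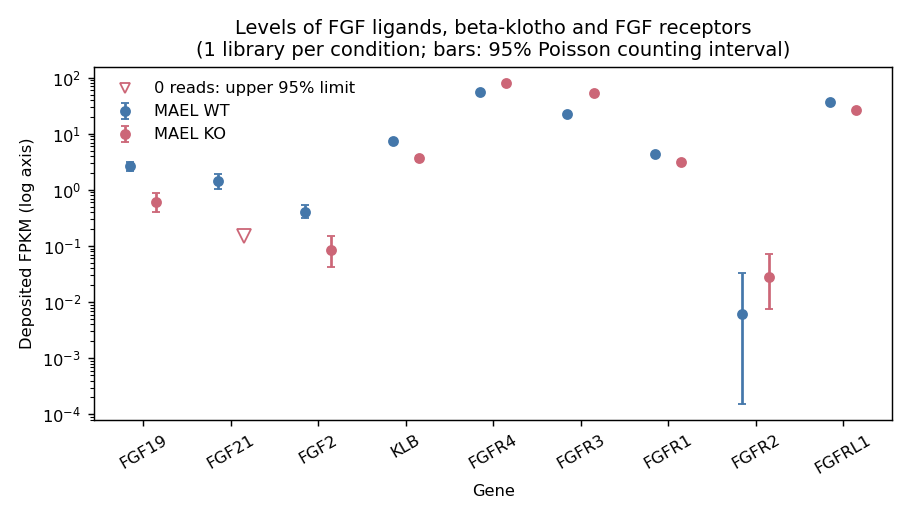
Deposited FPKM (log axis) of each gene in MAEL WT (blue) and MAEL KO (red), 1 library each, with 95% Poisson counting intervals that are narrower than the points for the receptors other than FGFR2. The 3 ligands lie lower in MAEL KO, FGFR4 and FGFR3 lie higher, and the open triangle is the upper limit for FGF21, which had 0 counts there.

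FGF21 lies on the plus strand of chromosome 19 of GRCh38 at chr19:48755559-48758333, where GENCODE 29 annotates 2 transcripts of up to 4 exons. FGF21 had 41 counts in MAEL WT and 0 in MAEL KO, or 1.43 and 0 FPKM. Set against a floor of 3 counts, the knockout level was at least 11.8-fold lower, and the end of its counting interval nearest to 0 was -3.20 on the log2 scale. The transcript was not detectable in MAEL KO at this depth, where an upper 95% limit of 0.148 FPKM is allowed.

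The promoter window of FGF21 is shown because this gene had the lowest ratio of the 9 and because it carries a motif found at stress-response genes. The window is from RefSeq on GRCh38.p14, plus strand, chr19:48755274-48755573, 250 bases before to 50 after the transcript start, 5′ to 3′. Capitals mark the match to TGATGNAA, the core of the C/EBP-ATF response element, here read on the opposite strand and starting at position -54 from the transcript start.
FGF21: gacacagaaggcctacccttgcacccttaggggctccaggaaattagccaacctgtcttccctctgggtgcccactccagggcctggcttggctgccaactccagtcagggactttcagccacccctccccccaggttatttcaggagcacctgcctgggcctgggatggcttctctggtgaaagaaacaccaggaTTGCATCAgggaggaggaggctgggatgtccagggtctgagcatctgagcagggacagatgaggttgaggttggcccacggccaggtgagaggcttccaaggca
TGATGNAA was searched on both strands and was present in 3.62% of 35116 such windows. Windows were held for 7 of the 9 genes, not for FGF19 and FGFR1, and among these the match was also present in a window of FGFR2. A match is a description of letters and was not tested as a binding site.

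The integrated stress response, in which ATF4 turns on genes of amino acid supply and protein-folding stress, is known to induce FGF21. Of 20 genes on its list, 9 passed the threshold and all 9 were lower in MAEL KO, beside 5.64% of all tested genes below -2. The list median was -1.84, against -0.04 over all tested genes. CHAC1, a glutathione-degrading enzyme, had 2016 counts in MAEL WT and 131 in MAEL KO (log2 fold change -3.72). GDF15, another secreted stress hormone, had 65370 and 6975 counts (-3.02). SESN2, a restraint on growth signalling under stress, was at -2.69 and ATF3, a stress transcription factor, at -2.48. ATF4 itself, which is controlled largely at translation, had 12198 and 8922 counts (-0.24). These genes were lower together with FGF21, and their part in its difference was not tested. Of 19 list genes with a RefSeq window, 5 held TGATGNAA, namely ASNS, ATF3, CEBPG, CHAC1 and SLC3A2, and of all 27305 genes with a window 4.46% did. The list was drawn from general knowledge of this pathway, and the motif is known from such genes. These shares are therefore not independent of each other and are given as a description only.

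None of the 8 other regulators of FGF21 on the list passed the threshold. Their direction depended on the scaling, with 7 above 0, or 3 when the libraries were scaled by total counts. PPARA, the fasting receptor that induces FGF21, had 1453 counts in MAEL WT and 782 in MAEL KO, a log2 fold change of -0.68. CREB3L3, a liver factor that acts with it, was the highest of the list, with 207 and 618 counts (1.78).

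Genes around FGF21 on chromosome 19 were also lower in MAEL KO. Of the 10 tested genes within 100 kb, 4 passed -2, beside 5.64% of all tested genes and 11.4% of those with under 200 counts. These 4 reached 10 counts in MAEL WT alone, as FGF21 did, and so could only come out lower. The other 6 had at least 10 counts in both libraries and were also below 0 with either scaling. So were 52.0% of all tested genes with TMM, and 11702 of 17887 with total-count scaling. FUT1, a fucosyltransferase gene, lies head to head with FGF21 on the other strand. Its 5′ end is separated from the start of FGF21 by 168 bases, and its first 117 bases lie in the window printed above. It had 131 counts in MAEL WT and 0 in MAEL KO, at least 37.7-fold lower. The others past -2 were FUT2, a second fucosyltransferase gene, with 46 and 5 counts, the sperm protein gene IZUMO1 with 26 and 2, and the pseudogene SEC1P with 18 and 2. These genes were named after their values had been seen. On normalized counts the ratio was 0.0890 for IZUMO1, with a log2 interval from -6.61 to -1.49, and 0.129 for SEC1P, from -6.11 to -0.90. Their 2 counts in MAEL KO lie under the floor of 3, so both ratios are uncertain point values. Within 1000 kb, 15 of 83 tested genes passed -2, 3 of them with at least 10 counts in both libraries, and the median was -0.49, while the 1308 tested genes of chromosome 19 had a median of -0.10 and 5.12% past -2. Genes of 1 neighbourhood are not independent of each other.

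**Figure D2:**
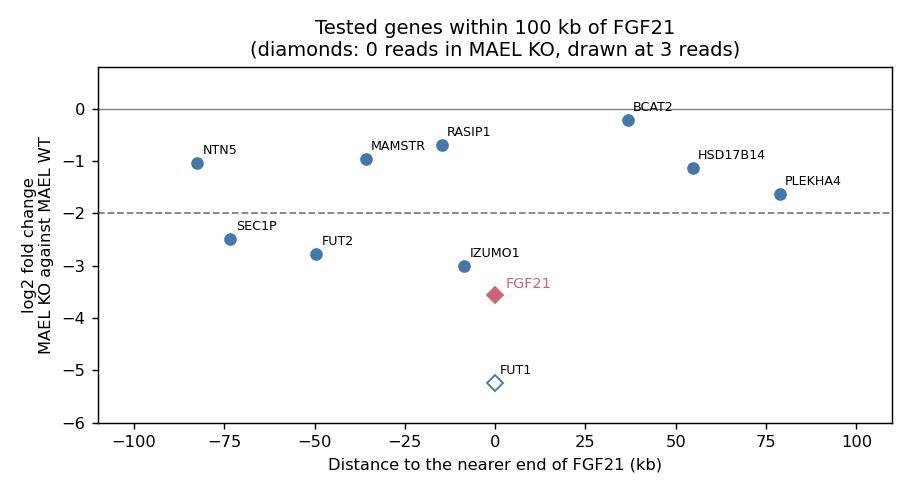
Log2 fold change between the libraries, knockout over wildtype, for the tested genes within 100 kb of FGF21, by distance in kb to its nearer end. All 10 lie below 0, and FUT1 and FGF21, with 0 counts in MAEL KO, are drawn at the floor of 3 counts as diamonds. IZUMO1 and SEC1P, with 2 counts there, are drawn at their own values.

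FGF19 lies on the minus strand of chromosome 11 at chr11:69698232-69704642, with 1 transcript of 3 exons. It had 140 counts in MAEL WT and 28 in MAEL KO, or 2.62 and 0.604 FPKM. FGF19 was 4.32-fold lower in MAEL KO, a log2 fold change of -2.08 with a 95% counting interval from -2.75 to -1.52, which includes the threshold. The protein-coding genes nearest to it in normalized counts of the 2 libraries were CCDC71L (139 and 28 counts), CORO6 (142 and 26) and BATF2 (145 and 26), at distances of 0.010 to 0.115 on the log2 scale.

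The FGF19 locus is often co-amplified with CCND1 in liver cancer. Of 11 listed genes of this region, 8 were tested and 1 passed the threshold, beside 7.80% of all tested genes, with a median of -0.16. CCND1, the cyclin of the G1 phase, had 3035 and 4155 counts (0.66), opposite in direction to FGF19. LTO1, which overlaps the end of CCND1 on the opposite strand and extends towards FGF19, had 1107 and 533 (-0.84). The strand setting is not given, so the counts of CCND1 and LTO1 may not be fully told apart. MYEOV, on the far side of CCND1, had 70 and 5 counts (-3.37) and entered through MAEL WT alone. The ligand genes FGF3 and FGF4 beside FGF19 had 0 and 0, and 1 and 0, counts. The genes around FGF19 thus did not share 1 direction in these libraries.

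FGF2, a paracrine ligand without a classical secretion signal, lies on chromosome 4 at chr4:122826708-122898236, plus strand, with 4 transcripts of up to 3 exons. It had 61 counts in MAEL WT and 11 in MAEL KO, or 0.412 and 0.0856 FPKM. It was 4.79-fold lower in MAEL KO, a log2 fold change of -2.17 with an interval from -3.34 to -1.32. FGF2 shares 804 exon bases with NUDT6 on the opposite strand, and since the strand setting of the counting is not given in the sources used here, their counts cannot be fully told apart. NUDT6 had 93 and 73 counts (-0.14). The nearest protein-coding genes in normalized counts were TGFB2 (60 and 11 counts), VANGL2 (63 and 11) and STK33 (61 and 10).

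The remaining secreted FGFs were nearly silent. Of 15 other ligand genes, 8 had 0 counts in both libraries, FGF23, the third hormone of the family, among them, and 2 were tested. FGF18 had 15 and 8 counts and FGF22 had 20 and 18, with log2 intervals that include 0. Of the 4 intracellular homologous factors, which do not act through the receptors, FGF12 was the most counted, with 278 and 318 (0.40), and FGF11 had 25 and 8 (-1.34).

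KLB lies on chromosome 4 at chr4:39406853-39451536, plus strand, with 1 transcript of 5 exons. It had 1007 counts in MAEL WT and 425 in MAEL KO, or 7.57 and 3.69 FPKM. It was 2.05-fold lower in MAEL KO, a log2 fold change of -1.03 with an interval from -1.20 to -0.87. Of all tested genes, 16.5% lay below -1. KL, the co-receptor of FGF23, had 2 and 0 counts.

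FGFR4, the main FGF receptor of hepatocytes, lies on chromosome 5 at chr5:177086886-177098144, plus strand, with 16 transcripts of up to 18 exons. It had 5792 counts in MAEL WT and 7308 in MAEL KO, or 54.8 and 79.8 FPKM, and was 1.46-fold higher in MAEL KO. Its log2 fold change was 0.55 with an interval from 0.50 to 0.60, and 0.27 with total-count scaling. FGFR4 stood at the top of the 9 genes per length in both libraries.

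FGFR3 lies on chromosome 4 at chr4:1793293-1808872, plus strand, with 11 transcripts of up to 19 exons. It had 2433 counts in MAEL WT and 4948 in MAEL KO, or 22.9 and 53.8 FPKM, and was 2.35-fold higher in MAEL KO. Its log2 fold change was 1.23, with an interval from 1.16 to 1.31, past 1 in the direction that 10.2% of tested genes shared. It was 0.96 with total-count scaling. The 6 tested genes within 100 kb were also above 0, or 5 of 6 with total counts, with a median of 0.75. Of all 17887 tested genes, 8593 were above 0, or 6185 with total counts. Among the 6, TACC3, a mitotic spindle gene, had 954 and 2581 counts (1.65) and SLBP, the histone mRNA binding protein gene, 1345 and 2674 (1.20). The non-coding RNA AC016773.1 had 8 and 13 counts, with a log2 interval from -0.47 to 2.39. It entered through MAEL KO alone and could only come out higher. Within 1000 kb, 18 of 35 tested genes were above 0.

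FGFR1, the receptor through which FGF21 acts in fat, lies on the minus strand of chromosome 8 at chr8:38400215-38468834, with 43 transcripts of up to 22 exons. It had 1311 counts in MAEL WT and 823 in MAEL KO, or 4.33 and 3.14 FPKM. The log2 fold change was -0.46 with an interval from -0.59 to -0.33. FGFR1 shares 138 exon bases with LETM2 on the opposite strand, which had 92 and 20 counts, and 156 with an antisense RNA with 11 and 6.

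FGFR2 lies on the minus strand of chromosome 10 at chr10:121478334-121598458 and had 1 count in MAEL WT and 4 in MAEL KO. No fold change is given for it. Its upper 95% limits were 0.0336 and 0.0713 FPKM.

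FGFRL1 encodes a receptor-like protein that binds FGFs and lacks the kinase domain. It lies on chromosome 4 at chr4:1009936-1026897, plus strand, with 7 transcripts of up to 8 exons. It had 3412 counts in MAEL WT and 2085 in MAEL KO, or 37.6 and 26.5 FPKM. The log2 fold change was -0.50 with an interval from -0.58 to -0.42. It was thus lower where FGFR3 and FGFR4 were higher, but the kinase-bearing FGFR1 was lower too (-0.46).

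**Figure D3:**
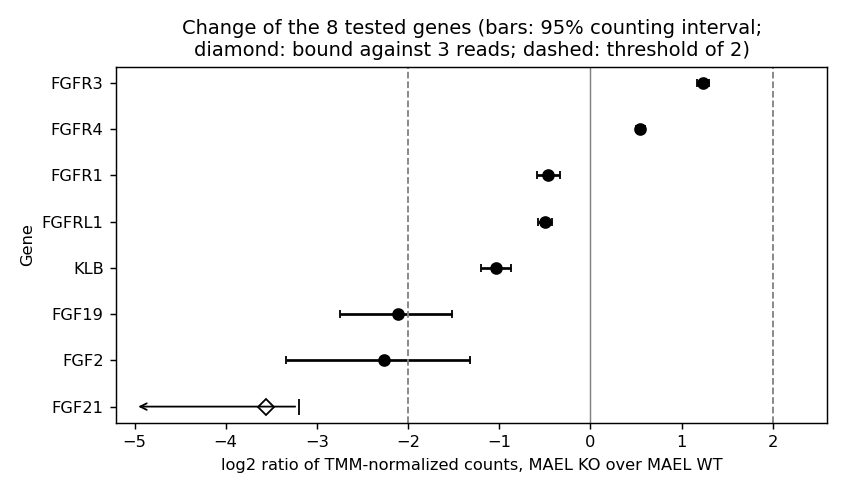
Log2 ratio of TMM-normalized counts, MAEL KO over MAEL WT, with 95% counting intervals for the 8 tested genes. The intervals of FGF19 and FGF2 cross the dashed threshold of 2, and FGF21 is drawn as a bound, with its arrow starting at the interval end of -3.20.

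The promoter windows of KLB, 1 of the genes lower in MAEL KO, and of FGFR3 and FGFR4, the receptors that were higher, are shown as a description. They are RefSeq windows on GRCh38.p14, plus strand, the FGFR4 one being 1 of 2 held for that gene, at chr4:39406680-39406979, chr4:1793043-1793342 and chr5:177086665-177086964, and capitals mark matches to GGGCGG, the GC box, on either strand.
KLB: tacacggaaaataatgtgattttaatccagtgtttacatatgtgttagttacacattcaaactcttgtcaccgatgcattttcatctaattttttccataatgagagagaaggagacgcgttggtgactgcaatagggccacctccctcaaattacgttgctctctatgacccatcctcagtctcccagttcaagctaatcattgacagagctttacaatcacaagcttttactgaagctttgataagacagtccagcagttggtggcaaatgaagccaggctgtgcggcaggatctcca
FGFR3: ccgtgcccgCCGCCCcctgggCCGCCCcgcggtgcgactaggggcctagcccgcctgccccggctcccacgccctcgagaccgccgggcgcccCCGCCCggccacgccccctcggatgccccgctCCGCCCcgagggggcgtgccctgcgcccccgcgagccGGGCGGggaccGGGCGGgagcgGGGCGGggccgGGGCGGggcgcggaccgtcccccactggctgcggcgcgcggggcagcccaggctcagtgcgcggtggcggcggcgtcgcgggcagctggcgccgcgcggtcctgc
FGFR4: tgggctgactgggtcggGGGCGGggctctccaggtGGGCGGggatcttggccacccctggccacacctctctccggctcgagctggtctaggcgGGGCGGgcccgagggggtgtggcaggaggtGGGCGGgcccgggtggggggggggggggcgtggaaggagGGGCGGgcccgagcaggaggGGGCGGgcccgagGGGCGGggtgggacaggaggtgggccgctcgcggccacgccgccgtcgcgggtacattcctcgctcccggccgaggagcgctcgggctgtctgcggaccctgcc
The window of FGFR3 held 8 matches and that of FGFR4 held 7, whereas KLB held 0 and FGF21 held 0. GC content was 86.3% for FGFR3, 78.7% for FGFR4, 42.3% for KLB and 60.0% for FGF21, with a median of 58.7% over all windows. FGF2, which was lower in MAEL KO, had 74.7% and 3 matches, and FGFRL1, also lower, had 68.3% and 4. Among the 6 tested genes with a window, FGFR3 and FGFR4 thus had the highest GC content and the most matches, which is given as a description of few genes. FGFR2, barely counted in both libraries and not tested, had 79.3%, above FGFR4, and 5 matches in 1 of its 5 windows. The motif was present in 45.0% of all windows.

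Per gene length, the order of the genes in MAEL WT was FGFR4, FGFRL1, FGFR3, KLB, FGFR1, FGF19, FGF21, FGF2 and FGFR2, with no overlap between the counting intervals of neighbours. In MAEL KO, FGFR3 stood above FGFRL1. There, the intervals of KLB at 3.69 FPKM (95% interval 3.34 to 4.05) and FGFR1 at 3.14 (2.93 to 3.36) overlapped narrowly. Those of FGF2, FGFR2 and FGF21 overlapped as well. Overlap is not a test of a difference, and these genes were left unordered. The place of FGFR1 rests on its listed length of 13842 bases, which joins the exons of 43 transcripts. Per kilobase of the longest coding transcript, of 6054 bases, FGFR1 stood above KLB in both libraries, at 202 against 154 normalized counts per kilobase in MAEL WT and 147 against 75.4 in MAEL KO.

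The composition of the receptors differed between the libraries. Of the summed FPKM of the 4 signalling receptors, FGFR4 took 66.8% in MAEL WT and 58.3% in MAEL KO, FGFR3 27.9% and 39.3%, and FGFR1 5.27% and 2.29%. With the longest coding transcript as length, FGFR4 took 70.8% and 65.2%.

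**Figure D4:**
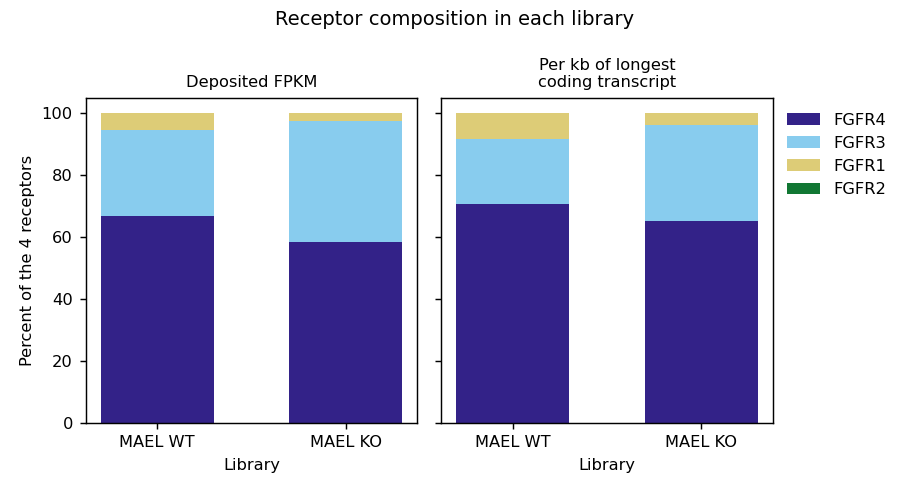
Percent of the summed level of the 4 signalling receptors taken by each, in 1 library per condition, with deposited FPKM (left) and per kilobase of the longest coding transcript (right). FGFR3 takes a larger part in MAEL KO by both measures, and FGFR2 is too low to be seen.

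Ratios of genes within a library do not depend on how the libraries are scaled against each other. Of the counts of FGFR3 and FGFR4 together, FGFR3 made up 29.6% (95% Clopper-Pearson interval 28.6% to 30.6%) of 8225 in MAEL WT and 40.4% (39.5% to 41.2%) of 12256 in MAEL KO. The ratio of KLB to FGFR4, which form the receptor of FGF19 together, was 0.138 by FPKM in MAEL WT and 0.0462 in MAEL KO, 2.99-fold lower (95% counting interval 2.66 to 3.37). The ratio of FGFRL1 to FGFR4 was 2.06-fold lower (1.94 to 2.20) and that of FGFR1 to FGFR4 2.01-fold lower (1.83 to 2.21). The ratio of FGF19 to FGFR4 was 6.31-fold lower (4.20 to 9.48). These intervals cover counting error between 2 libraries only.

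Partners of FGFs on the cell surface and in the matrix differed in both directions. Of 21 listed genes 15 were tested, and 2 passed the threshold upwards and 2 downwards, with a median of -0.40. Over all tested genes, 2.16% passed it upwards and 5.64% downwards. GPC3, a glypican of fetal liver and liver cancer, had 3196 counts in MAEL WT and 21285 in MAEL KO, 7.71-fold higher in MAEL KO. Its relative GPC5 had 37 and 286 (3.12). HSPG2, which encodes the basement membrane proteoglycan perlecan, had 3883 and 564 (-2.57). FLRT2, a membrane protein gene of a family that interacts with FGF receptors, had 38 and 0, at least 10.9-fold lower in MAEL KO, and entered the tested set through MAEL WT alone.

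Of 18 enzymes that build or trim heparan sulfate, 12 were tested and 1 passed the threshold, a share near the 7.80% of all tested genes. SULF2, which removes sulfate groups from heparan sulfate outside the cell, had 3 counts in MAEL WT and 47 in MAEL KO. The ratio was 18.1 with a log2 interval from 2.54 to 6.51, an uncertain point value because 3 counts is the floor. It entered the tested set through MAEL KO alone and could only come out higher. The list median was 0.21, and -0.06 with total-count scaling.

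None of the 19 adaptors and RAS-MAPK core genes passed the threshold, and the median was 0.13, or -0.14 with total-count scaling. FRS2, the main docking protein of FGF receptors, had 456 and 435 counts, a log2 fold change of 0.14 that became -0.13 with total-count scaling. The lowest was CBL, a ubiquitin ligase that removes receptors, at -0.80, and the highest was HRAS at 0.93.

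Genes that FGF signalling induces, many of which feed back on it, did not share 1 direction. Of 18, all tested, 4 passed the threshold and all 4 were lower in MAEL KO, with a median of -0.44. Among all tested genes 7.80% passed it, and 5.64% lay below -2. They were EGR1, an immediate-early transcription factor, with 1883 and 304 counts (-2.42), FOSL1 of the AP-1 family with 1320 and 254 (-2.16), and the MAPK inhibitors SPRY3 with 46 and 8 (-2.19) and SPRED3 with 179 and 34 (-2.16). SPRY3 entered through MAEL WT alone. These genes also respond to other growth factor signals. The usual FGF readouts ETV4, DUSP6 and ETV5 lay on both sides of 0. ETV4 had 2709 and 6228 counts (1.41) and the ERK phosphatase gene DUSP6 had 441 and 853 (1.16), both higher in MAEL KO, and ETV5 had 808 and 374 (-0.90). SPRY4 was at -0.35, and SPRY2 at 0.25, or -0.02 with total-count scaling.

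**Figure D5:**
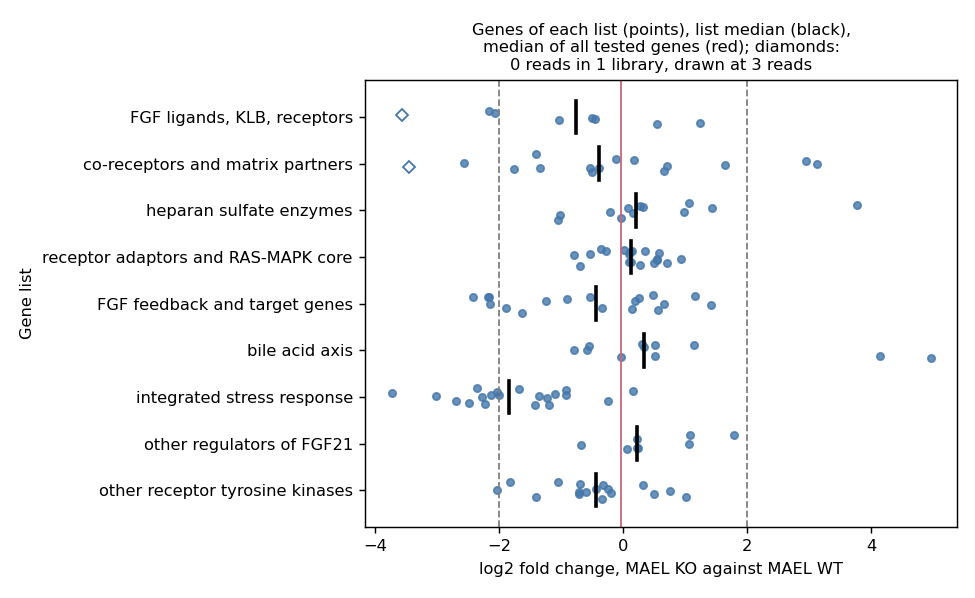
Log2 fold change between the libraries, knockout over wildtype, for the tested genes of each list (points), the list median (black) and the median of all tested genes (red, -0.04). The integrated stress response lies to the left with a median of -1.84, and the adaptor and RAS-MAPK genes lie between the dashed thresholds of 2.

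The bile acid axis, on which FGF19 and FGFR4 act, had 11 of 16 genes tested, with a median of 0.33. Of these, 2 passed the threshold and were higher in MAEL KO, beside 2.16% of all tested genes above 2. NR1H4, the bile acid receptor FXR that induces FGF19, had 9 counts in MAEL WT and 270 in MAEL KO, a log2 fold change of 4.96 with an interval from 4.17 to 6.26. Its direction was opposite to that of FGF19. BAAT, which conjugates bile acids, had 5 and 92 (4.15). Both reached 10 counts in MAEL KO alone, so their direction was fixed by the filter. CYP7A1, the rate-limiting enzyme of bile acid synthesis and the usual hepatic target of FGF19, had 0 counts in both libraries, so its response could not be measured. These differences stood beside those of the hepatocyte markers, 4 of 17 of which passed the threshold upwards, against 2.16% of all tested genes. The part of that difference was not tested.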

How the data were processed

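Total RNA of 1 MAEL WT and 1 MAEL KO culture was read on a HiSeq instrument. The authors deposited raw counts for each gene together with FPKM values. The FPKM follow from counts and listed gene length with library sizes of 1.10 (MAEL WT) and 0.910 (MAEL KO) times the summed counts, so they had been rescaled. The submitters' processing notes list HISAT2 2.0.5, featureCounts 1.5.0-p3 and hg19. The deposited coordinates are those of GRCh38, since 58724 of 58735 genes have the coordinates of GENCODE 29. The strand setting is not given in the sources used here.

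Counts were normalized with TMM factors of 1.10 and 0.909 in edgeR 4.0.16, with size factors of DESeq2 1.42.0 as an alternative, in R 4.3.3, and summarised in Python 3.11.15 with SciPy 1.17.1 and pandas 2.3.3. Genes at 0 counts were set against a floor of 3 counts, or 0.151 and 0.144 CPM. Molecular identifiers are not described, so reads need not be independent molecules, and all limits given reflect counting error alone. The steps were tested on simulated data. The members and lists were chosen with earlier results of these data known. Named were all members and the targeted gene, up to 4 list genes at each end past the threshold or otherwise the list extremes, usual readouts of the pathway, and the 3 genes nearest to each member past the threshold and above the floor. Neighbours of FGF21, FGF19 and FGFR3, overlapping genes and marker genes were named after their values had been seen. Alternatives were other scalings, added counts, count filters, a threshold of 1 and another gene length.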

Additional observations from a re-analysis of the deposited data

How the results depend on the processing

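With 1 library per condition, leaving out a library was not possible, and no paired analysis was possible because each condition has 1 library. The 8 tested FGF genes kept their direction under DESeq2 size factors and total counts, and those above 0 counts in both libraries also under the deposited FPKM ratio and added counts of 0.1 and 5. The FPKM ratio is not a separate check. Its library sizes of 1.10 and 0.910 times the summed counts are close to the TMM factors of 1.10 and 0.909. The number past -2 was 3, and it was 1 with an added count of 5, where FGF19 was at -1.94 and FGF2 at -1.88, and 1 for genes with at least 100 counts, which FGF19 alone of the 3 has. At a log2 threshold of 1 the number higher was 1 in place of 0. With total-count scaling the median over tested genes was -0.31 in place of -0.04, and it moved the share higher among genes past the threshold from 27.7% to 17.0%. It moved FGFR1 to -0.74, FGFR3 to 0.96, FGFR4 to 0.27, FGFRL1 to -0.78 and KLB to -1.31. Of the genes on the pathway lists, 5 were higher and 15 lower past the threshold. Of the 15, 9 were of the integrated stress response, where 20 genes were tested. These counts add up lists of unlike size and are not shares, whereas 2.16% of all tested genes were higher and 5.64% lower. The number higher was 3 for genes with at least 100 counts and 14 at a log2 threshold of 1, where the number lower was 31. Of these 31, 16 were of the integrated stress response, and of all tested genes 10.2% lay above 1 and 16.5% below -1. Gene length per longest coding transcript, chosen after seeing the data, moved the percent of FGFR4 among the receptors to 70.8 and 65.2. Low counts limit FGF21, FGF2, FGF19 and FGFR2.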

Other observations

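Other receptor tyrosine kinases were examined beside the FGF receptors. Of 32 listed genes 17 were tested, 13 of these were below 0 and 4 above it, and the median was -0.44, against -0.04 over all tested genes. With total-count scaling 13 were likewise below 0. Of all tested genes 52.0% were below 0, or 11702 of 17887 with total-count scaling. LTK was the only gene of this list past the threshold, which 7.80% of all tested genes passed. It had 27 counts in MAEL WT and 5 in MAEL KO, a log2 fold change of -2.03. Its counting interval ran from -3.96 to -0.83, and it entered the tested set through MAEL WT alone. FGFR3 at 1.23 had a higher log2 fold change than each of the 17, of which DDR2, a collagen receptor gene, was the highest with 75 and 132 counts (1.02). EGFR had 4717 and 6869 counts (0.75), whereas MET, the hepatocyte growth factor receptor gene, had 4096 and 2181 (-0.70). These genes were named after their values had been seen, apart from LTK.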
